A study of Mus musculus with 14 samples.

Results

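Crypt stem cell and Wnt target genes were followed in whole mouse colon during chemically induced colitis, in the presence and absence of the glucocorticoid receptor (GR) in the intestinal epithelium. The 10 genes were Lgr5, Ascl2, Axin2, Smoc2, Sox9, Rnf43, Znrf3, Cdca7, Tnfrsf19 and Lrig1. They were found through the RefSeq accession that the array gives each probe, and they were measured by 13 of the 41174 probes of the array, 3 for Sox9, 2 for Smoc2 and 1 for each other gene. All 13 probes passed the filter on dim signals, which left 15540 named genes.

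Colon RNA came from female C57BL/6 mice aged 4 to 6 months. In Flox mice, which served as the controls, the GR gene Nr3c1 is flanked by loxP sites. GR iKO mice have the same floxed gene and a Villin-cre transgene, which acts in the epithelium of the intestine, so that the stroma, muscle, nerves and leukocytes of the same tissue keep GR. The mice drank regular water, or 2.5% dextran sulfate sodium (DSS) dissolved in it, for 7 days. DSS damages the lining of the colon and brings on colitis. Water was given to 4 mice of each genotype and DSS to 3 of each, and every mouse had its own 1-colour Agilent array.

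The colonic epithelium is renewed from stem cells at the base of the crypts. Wnt ligands, amplified by R-spondins that bind receptors of the Lgr family, stabilise beta-catenin in these cells, and beta-catenin with TCF/LEF factors turns on a set of target genes. Several of these targets feed back on the pathway, since Axin2 helps to degrade beta-catenin while Rnf43 and Znrf3 remove the Wnt receptors from the cell surface. After injury the crypt base is rebuilt from surviving cells, and an epithelium that expresses other genes covers the wound in the meantime.

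The promoter of Axin2, a gene commonly used as a readout of Wnt signalling, and a promoter of Tnfrsf19 are shown because the pathway acts through TCF/LEF sites. Both are from RefSeq on build GRCm38.p6 and run from 250 bases before the start site to 50 bases after it. The Axin2 window is chr11:108920099-108920398 on the plus strand, and the Tnfrsf19 window is chr14:61037938-61038237 on the minus strand. Capitals mark a match to CTTTGAA or CTTTGAT, a pair of motifs that share their first letters, read on both strands.
Axin2: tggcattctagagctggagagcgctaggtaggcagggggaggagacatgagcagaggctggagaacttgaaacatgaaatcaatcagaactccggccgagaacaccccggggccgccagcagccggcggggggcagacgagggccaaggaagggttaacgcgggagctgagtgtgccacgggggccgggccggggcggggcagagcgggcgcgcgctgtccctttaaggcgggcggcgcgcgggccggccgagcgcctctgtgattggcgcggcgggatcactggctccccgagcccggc
Tnfrsf19: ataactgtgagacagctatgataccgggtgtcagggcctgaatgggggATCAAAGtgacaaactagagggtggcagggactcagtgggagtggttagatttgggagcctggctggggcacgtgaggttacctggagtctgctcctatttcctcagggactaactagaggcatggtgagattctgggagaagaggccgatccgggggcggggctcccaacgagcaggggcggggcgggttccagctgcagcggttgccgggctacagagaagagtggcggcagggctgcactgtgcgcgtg
The table used held 8 promoters for 6 of the genes, namely Cdca7, Lrig1, Ascl2, Rnf43, Axin2 and Tnfrsf19. Only the Tnfrsf19 promoter printed here, 1 of the 8, held a match at position -202 from the start site. Of all 32851 promoters of the same length, 8.65% held one. A match in these letters is a description of the window.

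Each level is the log2 signal of a probe minus that of the 75th percentile of its array, so that 0 stands for the signal at that percentile. They can be compared between mice for a probe, and not between probes. The signal at the 75th percentile ran from 262 to 1003 over the 14 arrays and was lowest for Flox DSS replicate 4, and the share of probes detected well above background was 62.6% to 71.3%. Replicates were less alike on DSS, where the median SD of a probe was 0.26 in Flox and 0.34 in GR iKO, against 0.18 and 0.17 on water. The Nr3c1 probe with the highest level read 1.05 to 1.38 in Flox and 0.19 to 0.57 in GR iKO on water, and 1.07 to 1.46 in Flox and 0.37 to 0.48 in GR iKO on DSS, so the genotypes did not overlap in either condition. The difference on water was -0.80 on the log2 scale (limma adjusted p = 0.00923), and on DSS it was -0.83 (adjusted p = 0.0906), while scaling to spike-in RNA, control transcripts added to each sample, gave -0.94 (adjusted p = 0.0799) and turned the value on DSS to 0.28 (adjusted p = 0.664). All 12 epithelial markers of a fixed list, Epcam, Krt8, Vil1 and Cdx2 among them, were well above background on all 14 arrays.

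DSS lowered most of the crypt stem cell and Wnt target genes, and it did so in both genotypes. In Flox colon, 8 of the 10 genes passed an adjusted p of 0.05, 7 of them lower and 1 higher, where 47.2% of all probes passed, 25.4% lower and 21.8% higher. In GR iKO colon, 8 of the 10 passed and all 8 were lower, where 38.9% of all probes passed, 19.8% lower and 19.1% higher. By the brightest probe of each gene, the DSS and water mice did not overlap for 9 of the 10 genes in Flox, against 57.4% of all probes. The same held for 9 of the 10 in GR iKO, against 46.3%. By its other probes, Sox9 overlapped in Flox, and by the dimmest of them in GR iKO as well. Lrig1 in Flox was apart with DSS above water, and Smoc2 in GR iKO was apart in opposite directions by its probes. In Flox the highest DSS and lowest water mouse nearly met for Znrf3 (-3.2936 and -3.2903) and Tnfrsf19 (-1.4881 and -1.4868). The median log2 change of the 10 genes was -1.18 in Flox and -1.16 in GR iKO, where the median of all probes was -0.09 and -0.02. The 7 genes that fell in both genotypes were Lgr5, Ascl2, Axin2, Sox9, Rnf43, Cdca7 and Tnfrsf19. In bulk tissue, fewer crypt base cells and less RNA of these genes per cell cannot be told apart.

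**Figure D1:**
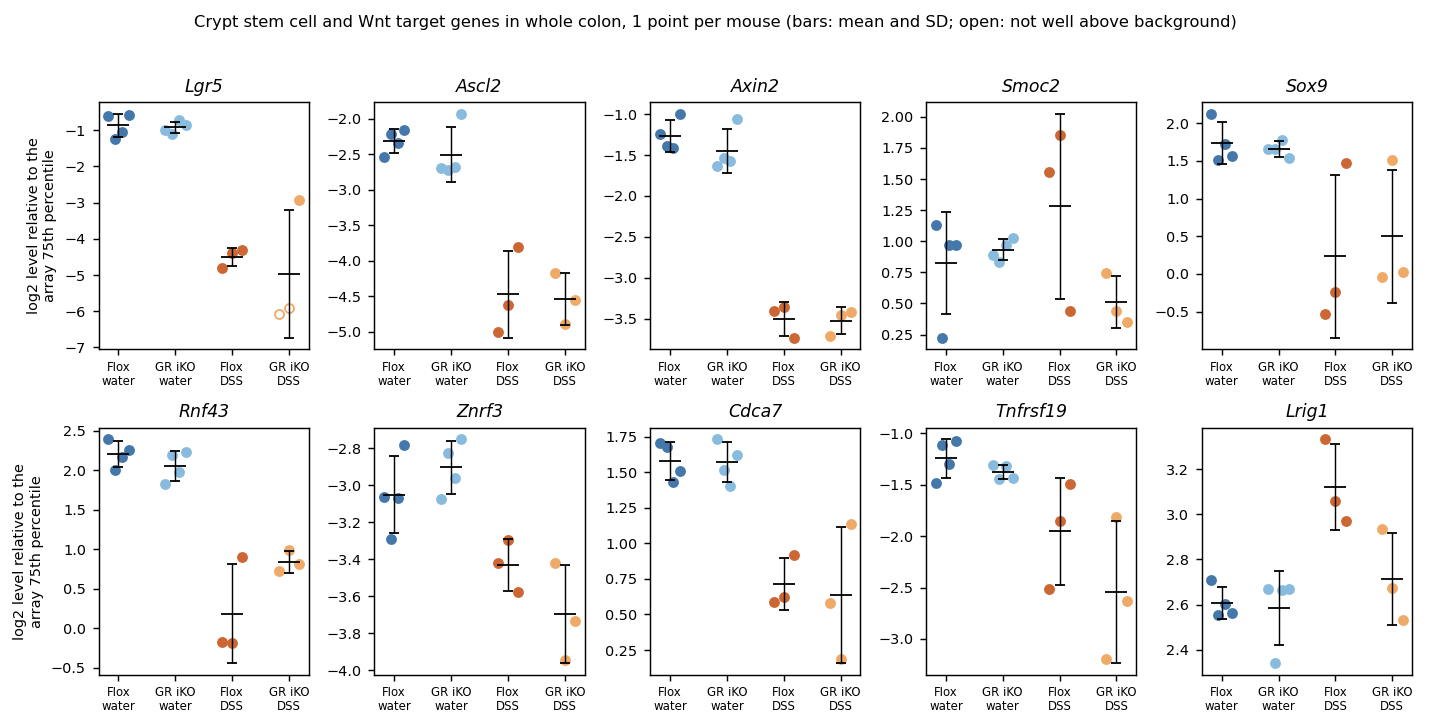
The log2 level of each gene on the scale of the 75th percentile (y axes) is plotted for every mouse in the 4 groups, with the mean and SD as bars and open points for arrays on which the probe was not well above background. Lgr5, Ascl2, Axin2 and Rnf43 on DSS lie below every water mouse, while 1 Sox9 point in each DSS group lies close to the water mice.

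Lgr5, the R-spondin receptor that marks crypt base stem cells, had the largest change of the 10 genes. The 4 Flox mice on water read -0.61, -1.23, -1.05 and -0.57, and the 3 Flox mice on DSS read -4.80, -4.39 and -4.32. The 4 GR iKO mice on water read -0.999, -1.09, -0.73 and -0.85, and the 3 GR iKO mice on DSS read -6.06, -5.91 and -2.92. Every DSS mouse was below every water mouse, and the single GR iKO value at -2.92, of replicate 4, was the highest of the 6 DSS mice. In Flox the log2 change was -3.64 (SE 0.52, adjusted p = 0.000151), which leaves 8.03% of the water signal. In GR iKO it was -4.05 (SE 0.52, adjusted p = 0.000121). Lgr5 was well above background on all 3 Flox DSS arrays and on 1 of the 3 GR iKO DSS arrays, so the 2 lower GR iKO values carry only a bound. Without GR iKO DSS replicate 4 the change in GR iKO was -5.07.

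Ascl2, the transcription factor that sustains the Lgr5 stem cell state, fell in parallel. In Flox it read -2.54, -2.22, -2.35 and -2.16 on water and -5.00, -4.62 and -3.80 on DSS. In GR iKO it read -2.69, -2.72, -2.68 and -1.93 on water and -4.17, -4.89 and -4.55 on DSS. No DSS mouse reached the water range. The log2 change was -2.16 in Flox (SE 0.32, adjusted p = 0.000194) and -2.03 in GR iKO (SE 0.32, adjusted p = 0.000455), or 4.46-fold and 4.09-fold lower.

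Axin2, the Wnt readout that feeds back on the pathway, had the smallest adjusted p of the 10 genes in both genotypes. It read -1.25, -1.39, -1.42 and -0.99 in Flox on water and -3.41, -3.35 and -3.73 in Flox on DSS. GR iKO mice read -1.64, -1.53, -1.58 and -1.06 on water and -3.71, -3.45 and -3.41 on DSS. The lowest water mouse was thus well above the highest DSS mouse in both genotypes. The log2 change was -2.23 in Flox (SE 0.22, adjusted p = 1.39e-05) and -2.07 in GR iKO (SE 0.22, adjusted p = 3.75e-05), or 4.70-fold and 4.21-fold lower. On the slides that held both conditions, 3 for each genotype, Axin2 was lower on DSS by -2.74 to -1.96 in Flox and by -2.35 to -1.87 in GR iKO.

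Rnf43 and Znrf3 are paralogous membrane ubiquitin ligases that clear Wnt receptors, and they changed to different extents. Rnf43 read 2.40, 2.00, 2.17 and 2.25 in Flox on water and -0.18, -0.18 and 0.91 on DSS. The GR iKO values were 1.82, 2.20, 1.98 and 2.23 on water and 0.72, 0.98 and 0.81 on DSS. All 6 DSS mice were below the 8 water mice, and Flox DSS replicate 4, at 0.91, lay within the range of the GR iKO DSS mice. Rnf43 fell by 2.03 on the log2 scale in Flox (SE 0.24, adjusted p = 4.1e-05) and by 1.22 in GR iKO (SE 0.24, adjusted p = 0.00182).

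Znrf3 read -3.06, -3.29, -3.07 and -2.78 in Flox on water and -3.42, -3.29 and -3.57 on DSS, with the highest DSS value next to the lowest water value. In GR iKO it read -3.07, -2.82, -2.96 and -2.75 on water and -3.42, -3.94 and -3.73 on DSS, without overlap. It fell by 0.80 in GR iKO (SE 0.19, adjusted p = 0.00549) and its change in Flox was -0.38 (SE 0.19, adjusted p = 0.116). With background correction by normexp the Flox value turned to 0.15 and the GR iKO value was -0.25 (adjusted p = 0.313). The Flox value was called lower in 4 of 26 alternative fits, namely quantile normalization (-0.54, adjusted p = 0.0409), the deposited table (-0.54, adjusted p = 0.0409), array quality weights (-0.35, adjusted p = 0.0182) and spike-in scaling (-2.51, adjusted p = 7.1e-05), and the GR iKO value in 25 of 26.

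Sox9, a transcription factor of the crypt base and of progenitors, split the DSS mice. Its brightest probe read 2.13, 1.52, 1.73 and 1.56 in Flox on water and -0.54, -0.24 and 1.47 on DSS. In GR iKO it read 1.66, 1.66, 1.78 and 1.53 on water and -0.04, 1.52 and 0.02 on DSS. Flox DSS replicate 4 and GR iKO DSS replicate 3 thus stayed close to the lowest water mouse of their genotype, and the other 4 DSS mice lay far below. The log2 change was -1.50 in Flox (SE 0.41, adjusted p = 0.00963) and -1.16 in GR iKO (SE 0.41, adjusted p = 0.04). The second probe gave -1.29 (adjusted p = 0.0158) for Flox and -1.29 (adjusted p = 0.0193) for GR iKO, with the same 2 mice standing apart. The third and dimmest probe, well above background on 1 of 3 arrays in each DSS group, gave -1.23 (adjusted p = 0.0254) for Flox and -0.76 (adjusted p = 0.161) for GR iKO.

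The call on Sox9 rests on few mice. It was lost in Flox without DSS replicate 1 (log2 change -1.12, adjusted p = 0.0911) or DSS replicate 2 (-1.27, adjusted p = 0.0696). In GR iKO it was lost without DSS replicate 1 (-0.89, adjusted p = 0.178) or DSS replicate 4 (-0.92, adjusted p = 0.185). It was also lost there, with adjusted p of 0.05 to 0.066, without Flox control replicate 3 or any 1 of the 4 GR iKO control arrays, without weights (adjusted p = 0.0538) and without the filter on dim probes (adjusted p = 0.0561). With Flox DSS replicate 4 and GR iKO DSS replicate 3 both left out, a choice made after seeing the data, the change was -2.12 (adjusted p = 3.32e-05) for Flox and -1.67 (adjusted p = 0.000298) for GR iKO. Other measures moved with these 2 arrays, since Flox DSS replicate 4 had the lowest array signal and GR iKO DSS replicate 3 had a mean level of 12 cell cycle genes of -2.05 relative to water, where the other GR iKO DSS mice read 0.02 and 0.00. Their part in the Sox9 values was not tested.

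Cdca7, a Myc-regulated gene of crypt base cells, showed a smaller and even decrease. It read 1.71, 1.68, 1.43 and 1.51 in Flox on water and 0.59, 0.62 and 0.92 on DSS. The GR iKO mice read 1.73, 1.52, 1.40 and 1.62 on water and 0.58, 0.19 and 1.14 on DSS. The groups did not overlap, and the change was -0.87 in Flox (SE 0.19, adjusted p = 0.00299) and -0.93 in GR iKO (SE 0.19, adjusted p = 0.00264).

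Tnfrsf19, a TNF receptor family member and Wnt target that is also called Troy, read -1.49, -1.11, -1.30 and -1.08 in Flox on water and -2.51, -1.85 and -1.49 on DSS. The GR iKO values were -1.31, -1.44, -1.32 and -1.43 on water and -3.19, -1.81 and -2.63 on DSS. Its GR iKO groups were clearly apart, whereas Flox DSS replicate 4 lay at the edge of the Flox water mice. It fell by 1.17 in GR iKO (SE 0.27, adjusted p = 0.00466) and by 0.71 in Flox (SE 0.27, adjusted p = 0.0452). The Flox call was close to the threshold and held in 11 of 26 alternative fits. It was lost in that without Flox DSS replicate 1 (-0.43, adjusted p = 0.305) and that without Flox DSS replicate 2 (-0.76, adjusted p = 0.104).

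Lrig1 is an inhibitor of EGF receptor family signalling that marks a partly quiescent crypt population. By the brightest probe of each gene, Lrig1 was the only gene called higher on DSS, and in Flox alone. It read 2.71, 2.55, 2.60 and 2.56 in Flox on water and 3.33, 3.06 and 2.97 on DSS. Values in GR iKO were 2.67, 2.34, 2.66 and 2.67 on water and 2.93, 2.68 and 2.53 on DSS. Relative to the 75th percentile Lrig1 rose by 0.52 in Flox (SE 0.15, adjusted p = 0.0151), and its change in GR iKO was 0.13 (SE 0.15, adjusted p = 0.543), while scaling to the spike-in RNA turned the Flox value to -1.61 (adjusted p = 0.00177). The rise in Flox was lost without DSS replicate 1 (0.41, adjusted p = 0.13) or DSS replicate 2 (0.55, adjusted p = 0.0546), and with normexp background correction (0.39, adjusted p = 0.0621).

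Smoc2, a secreted matrix protein listed among crypt base genes, did not pass by its brightest probe. This probe read 1.13, 0.22, 0.97 and 0.97 in Flox on water and 1.55, 1.85 and 0.44 on DSS. Values in GR iKO were 0.89, 0.84, 0.97 and 1.03 on water and 0.75, 0.44 and 0.35 on DSS. The Flox groups overlapped, because DSS replicate 4 lay among the water mice, and the GR iKO groups did not. The change was 0.46 in Flox (SE 0.33, adjusted p = 0.269) and -0.42 in GR iKO (SE 0.33, adjusted p = 0.336), and scaling to spike-in RNA turned the Flox value to -1.67 (adjusted p = 0.00576).

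The other Smoc2 probe disagreed with the first. It read -0.37, -0.46, -0.57 and -0.72 in Flox on water and 0.91, 1.24 and -0.49 on DSS. In GR iKO it read -0.55, -0.68, -0.49 and -0.53 on water and 0.04, -0.27 and -0.05 on DSS. These GR iKO groups did not overlap, with DSS above water, where the brightest probe had DSS below water. The second probe was called higher on DSS in Flox, by 1.08 (SE 0.27, adjusted p = 0.00631), and its value in GR iKO was 0.47 (adjusted p = 0.196). The brightest probe was also called higher in Flox without Flox DSS replicate 4, at 0.88 (adjusted p = 0.0411), and with array quality weights, at 0.64 (adjusted p = 0.01).

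**Figure D2:**
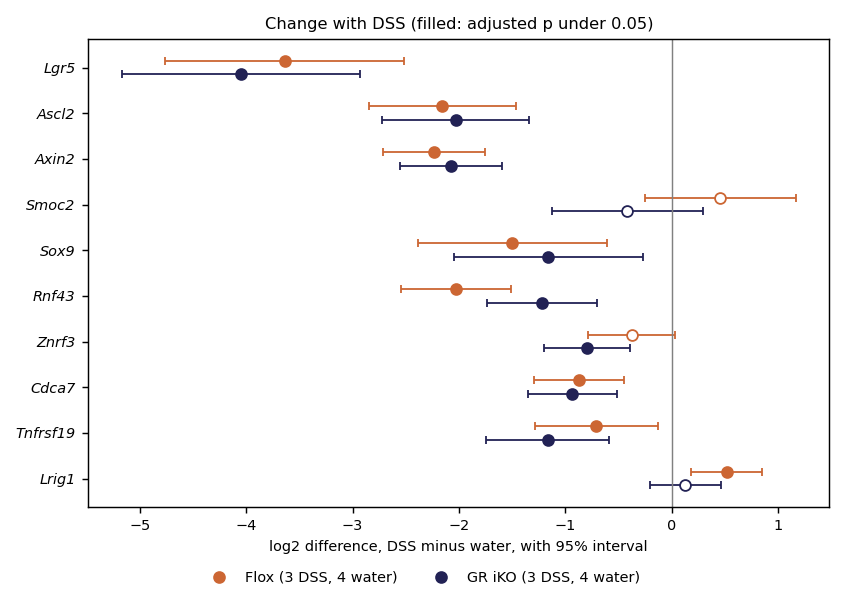
The log2 difference of DSS minus water (x axis) is plotted for each gene with its 95% interval, in Flox and in GR iKO, with filled points where the adjusted p was under 0.05. Changes run from -3.64 for Lgr5 to 0.52 for Lrig1 in Flox and from -4.05 to 0.13 for the same genes in GR iKO.

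These changes depend on the reference chosen for the array. Spike-in RNA added before labelling read higher relative to colon RNA on DSS arrays, and scaling to it moved the median change of all probes to -2.22 in Flox and -0.90 in GR iKO. On that scale all 10 genes were called lower in Flox, where 81.6% of all probes were, and 8 in GR iKO, where 36% were. Lgr5, Ascl2, Axin2, Rnf43 and Cdca7 were lower and passed in both genotypes in each of the 26 alternative fits. Normexp background correction left smaller changes, with Lgr5 at -1.78 and Ascl2 at -0.60 in Flox, and moved the median of all probes to 0.22 and 0.13. All of Lgr5, Ascl2, Axin2, Rnf43, Sox9, Cdca7, Tnfrsf19 and Znrf3 were lower on DSS within each of the 3 slides that held a DSS and a water mouse of the same genotype.

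On water, no difference between GR iKO and Flox colon was detected for any of the 10 genes. The GR iKO minus Flox differences ran from -0.19 for Ascl2 to 0.15 for Znrf3, no gene passed (0 of 10, where 0.0237% of all probes passed), and no gene had an unadjusted p under 0.05, where 3.32% of all probes did. The 95% interval of the difference was -0.73 to 0.62 for Lgr5, -0.48 to 0.10 for Axin2 and -0.22 to 0.18 for Lrig1. Differences within these intervals are not excluded.

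On DSS the genotypes also did not differ by the test, with much wider intervals. None of the 10 genes passed (0 of 10, where 0.0203% of all probes passed), and none had an unadjusted p under 0.05, where 17.8% of all probes did. The smallest adjusted p, 0.283, was that of Rnf43, which was higher in GR iKO by 0.66 (95% interval -0.0036 to 1.32). Smoc2 was at -0.77 (-1.68 to 0.13), Tnfrsf19 at -0.59 (-1.34 to 0.15) and Lgr5 at -0.46 (-1.90 to 0.97). Lrig1, at -0.41 (-0.83 to 0.02, adjusted p = 0.302), was the 1 gene of the 10 whose Flox and GR iKO mice did not overlap on DSS, against 22.8% of all probes.

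The DSS response itself was compared between genotypes by the interaction term. None of the 10 genes passed, and no probe of the array did (0% of 29523). Rnf43 was the 1 gene with an unadjusted p under 0.05, where 14.9% of all probes had one, and its fall was smaller in GR iKO by 0.81 (95% interval 0.08 to 1.54, adjusted p = 0.292). The response of Lgr5 differed by -0.41 (-1.996 to 1.18), that of Ascl2 by 0.13 (-0.85 to 1.10) and that of Axin2 by 0.16 (-0.52 to 0.84).

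The Rnf43 result depended on how the DSS arrays were weighted. With 1 quality weight for each array, Rnf43, Smoc2 and Lrig1 were called between genotypes on DSS, at 0.93 (adjusted p = 0.0204), -1.12 (adjusted p = 0.0252) and -0.59 (adjusted p = 0.0416). These weights called 4455 of all 29523 probes for that comparison, against 6 in the main fit. Without Flox DSS replicate 4 and GR iKO DSS replicate 3, Rnf43 was the only gene of the 10 called. Its genotype difference on DSS was 0.95 (adjusted p = 0.0312) and its interaction 1.10 (adjusted p = 0.0389). That fit also called other genes between genotypes on DSS, where the main fit called none of them. They were 5 of 8 smooth muscle markers, 4 of 12 cell cycle genes and 4 of 12 other Wnt targets, against 0 of 10 fibroblast and 0 of 9 leukocyte markers. The calls are thus not particular to Rnf43. On the 2 slides that held DSS mice of both genotypes, the Rnf43 difference was 1.16 on one and -0.09 on the other.

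**Figure D3:**
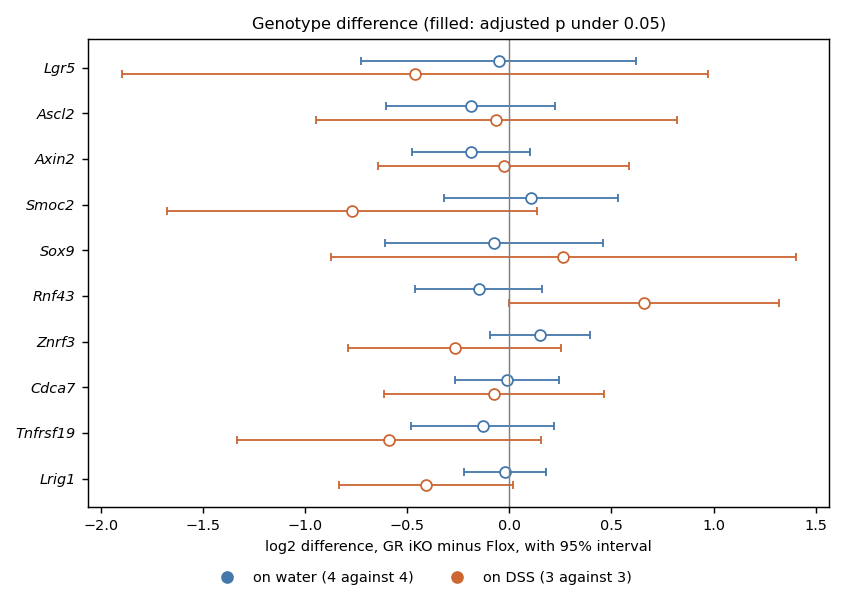
The log2 difference of GR iKO minus Flox (x axis) is plotted for each gene with its 95% interval, on water and on DSS, and no point is filled because no adjusted p was under 0.05. The intervals on DSS are wider than those on water for all 10 genes, and all of the intervals include 0.

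Other genes of the crypt base were called lower more often than higher, and some were not called. Of 16 tested genes of this kind, 9 fell and 1 rose in Flox and 7 fell and 2 rose in GR iKO, and 7 fell in both. Bmi1 was the gene that rose in Flox, by 0.62 (adjusted p = 0.00267). Prom1 and Cd44 rose in GR iKO, by 1.37 (adjusted p = 0.00387) and 1.04 (adjusted p = 0.0175). The median change of the 16 genes was -0.84 in Flox and -0.48 in GR iKO. Of all probes, 25.4% fell and 21.8% rose in Flox, and 19.8% fell and 19.1% rose in GR iKO. Reg4, a lectin of the deep crypt secretory cells that stand beside colonic stem cells, fell by 8.18 in Flox (adjusted p = 2.34e-05) and fell by 6.84 in GR iKO (adjusted p = 0.000126). Hopx, a homeobox gene linked to slow-cycling crypt cells, fell by 2.68 (adjusted p = 2.61e-05) and 1.82 (adjusted p = 0.000546). Slc12a2, the chloride co-transporter of crypt cells, fell by 1.63 and 1.56, and Vdr, the vitamin D receptor, by 1.61 and 1.54. Scaled to spike-in RNA, 16 were lower in Flox and 10 in GR iKO, where 81.6% and 36% of all probes were lower.

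Wnt targets outside the 10 genes were called in both directions. Of 12 tested, 5 fell and 1 rose in Flox, and 2 fell and 2 rose in GR iKO, with a median change of -0.36 and -0.13. The shares called, 6 of 12 and 4 of 12, were near those of all probes, 47.2% and 38.9%. Nkd1, an inhibitor of Wnt signalling that is induced by it, rose by 2.26 in Flox (adjusted p = 5.97e-06) and by 1.27 in GR iKO (adjusted p = 0.000363), while on the spike-in scale its values were 0.13 (adjusted p = 0.795) and 0.39 (adjusted p = 0.476). Bambi, a BMP and TGF-beta pseudoreceptor, fell by 1.12 (adjusted p = 0.00201) and 0.77 (adjusted p = 0.021). These were the 2 genes of the list called in the same direction in both genotypes. Olfm4, Kit, Notum, Prox1 and Ccnd1 of these lists had no tested probe.

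Rspo3 and Rspo2, secreted R-spondins made by stromal cells, rose relative to the 75th percentile while their receptor Lgr5 fell. Rspo3 rose by 3.17 in Flox (adjusted p = 5.97e-06) and by 2.55 in GR iKO (adjusted p = 3.58e-05), and on the spike-in scale it was still higher, at 1.04 (adjusted p = 0.049) and 1.67 (adjusted p = 0.0142). Rspo2 rose by 2.14 (adjusted p = 0.000293) and 1.51 (adjusted p = 0.00382), a rise that was not called on the spike-in scale, at 0.01 (adjusted p = 0.986) and 0.63 (adjusted p = 0.374). Both were near background on water, where Rspo3 was well above it on 2 of 4 arrays in each genotype and Rspo2 on 2 of 4 in Flox, so the sizes are uncertain. With normexp background correction they were smaller, at 1.53 and 1.09 for Rspo3 and at 1.22 and 0.72 for Rspo2. Tcf7l1, a TCF family repressor, fell by 1.65 (adjusted p = 0.00465) and 1.45 (adjusted p = 0.0123). Of the 15 tested R-spondins and pathway components, 3 rose and 2 fell in Flox, and 4 rose and 2 fell in GR iKO, with median changes of 0.49 and 0.03. The shares called were near or below those of all probes, 47.2% in Flox and 38.9% in GR iKO. Ctnnb1, which encodes beta-catenin and is named here after its values were seen, had log2 differences of -0.13 (adjusted p = 0.495) and 0.03 (adjusted p = 0.899).

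Genes that mark injured epithelium rose relative to the 75th percentile. Of 12 such genes, 7 rose in Flox and 7 in GR iKO, 6 of them in both, and none fell, with median changes of 1.52 and 2.06. Of all probes, 21.8% rose in Flox and 19.1% in GR iKO. Ereg, an EGF receptor ligand, had no water array on which it was well above background, and relative to the 75th percentile it was at least 12.4-fold higher on DSS in Flox (adjusted p = 3.41e-05) and at least 12.02-fold higher in GR iKO (adjusted p = 2.49e-05). These bounds hold on that scale only, since its log2 change was 2.29 and 4.17 by spike-in scaling and 1.86 and 1.88 with normexp. Areg, a ligand of the same receptor, rose by 2.59 and 2.90, Il33, an alarmin cytokine that stromal cells also make, by 4.25 and 4.43, and Sprr1a, a cornified envelope gene, by 2.23 and 3.95. On the spike-in scale 2 of the 12 were called higher in Flox, namely Ereg and Il33, and 2 were called lower, while 5 were called higher in GR iKO. Of all probes, 0.833% and 2.49% were called higher on that scale.

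**Figure D4:**
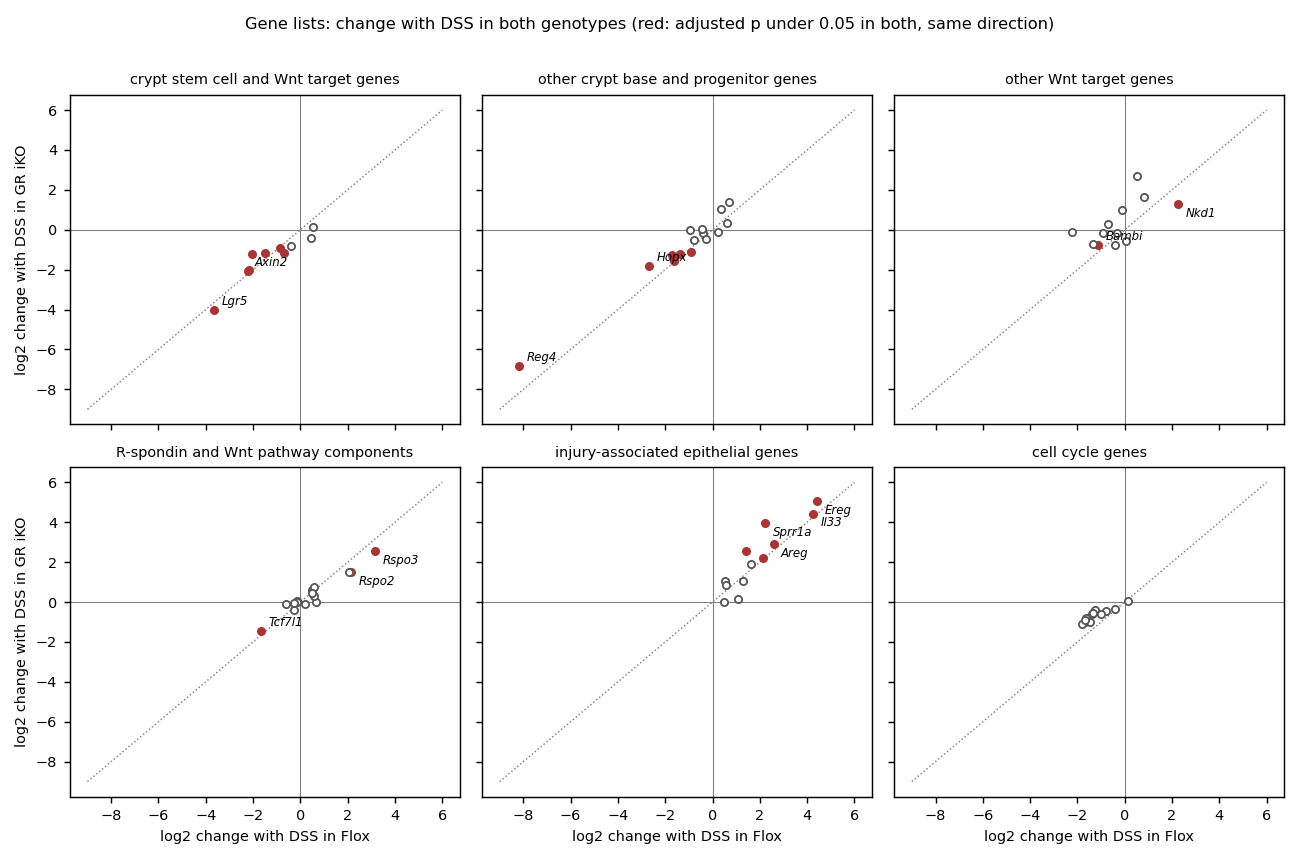
The log2 change with DSS in Flox (x axes) is plotted against that in GR iKO (y axes) for the genes of 6 lists, with red points for genes called in the same direction in both genotypes and a dotted line of equal change. The points of the crypt lists lie mostly below 0 on both axes and those of the injury list mostly above 0, and Ereg is drawn at its measured value.

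Markers of proliferation and of other cell types were also examined. For comparison, 21.8% of all probes rose and 25.4% fell in Flox, and 19.1% rose and 19.8% fell in GR iKO. Of 12 cell cycle genes, 9 fell in Flox and 0 in GR iKO by limma, with median changes of -1.37 and -0.58. An unadjusted p under 0.05 was found for 10 and 3 of the 12, against 54.3% and 47.3% of all probes. None of the 12 was called between genotypes on DSS or for the interaction. Their mean level relative to water was -1.03, -1.40 and -1.03 in the Flox DSS mice. In the GR iKO DSS mice it was 0.02, -2.05 and 0.004. The summed signal of 12 epithelial markers on DSS was 76.5% to 124% of the water mean in Flox and 96.4% to 139% in GR iKO, against 90.1% to 109% on water, with 4 lower and 2 higher in Flox and 1 lower and 2 higher in GR iKO, while on the spike-in scale 12 were lower in Flox and 3 in GR iKO, where 81.6% and 36% of all probes were. Cdx1, a homeobox factor of intestinal identity, fell by 2.60 (adjusted p = 1.45e-05) and 1.59 (adjusted p = 0.000588), while Krt20, a keratin of differentiated surface cells, rose by 0.58 (adjusted p = 0.0402) and 1.07 (adjusted p = 0.00201), and Elf3, an epithelial transcription factor, by 0.72 (adjusted p = 0.0165) and 0.89 (adjusted p = 0.00691). On the spike-in scale Krt20 was at -1.55 (adjusted p = 0.00141) and 0.19 (adjusted p = 0.698) and Elf3 at -1.41 (adjusted p = 0.001) and 0.01 (adjusted p = 0.978). That of 10 fibroblast markers was 218% to 326% in Flox and 200% to 250% in GR iKO, and 10 and 9 of them rose. That of 9 leukocyte markers was 434% to 1031% in Flox and 1232% to 4027% in GR iKO, with 4 higher and 1 lower in Flox and 6 higher in GR iKO. Of 8 smooth muscle markers 7 rose in Flox and 1 in GR iKO, and all 7 markers of enteric glia and neurons rose in both. Between genotypes on DSS the summed smooth muscle signal was 192% to 341% of the water mean in Flox and 64.8% to 150% in GR iKO. None of the 8 markers was called by limma, while all 8 had an unadjusted p under 0.05, against 17.8% of all probes. The same comparison gave an unadjusted p under 0.05 for 6 of 12 epithelial markers and 5 of 7 glial and neuronal markers. It did so for 2 of 10 fibroblast and 2 of 9 leukocyte markers and for 0 of 12 cell cycle genes. None of these was called. On the spike-in scale no smooth muscle marker was called in either genotype, and no fibroblast marker was called higher, while 2 were called lower in Flox. There 2 leukocyte markers were higher and 5 lower in Flox, with a median change of -1.41, and 3 were higher in GR iKO. The 1 glial or neuronal marker called on that scale, higher in each genotype, was Gfap. The part of these shifts in the values of the 10 genes was not tested.

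Beyond the lists, the genes whose level followed Lgr5 and Axin2 most closely over the 14 arrays were found among 15464 genes. For Lgr5 they were Plch2 (r = 0.988), Pdzd7 (0.986), Engase (0.985), Aqp11 (0.984) and Abhd14b (0.984). For Axin2 they were Dmac2 (0.992), Tspan33 (0.990), Ring1 (0.989), Eif4ebp2 (0.989) and Slc34a2 (0.986). All 10 were lower on DSS than on water, so that these correlations rest largely on the gap between the 8 water and the 6 DSS arrays and are given as a description.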

How the data were processed

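RNA from 14 whole colons, 1 mouse each and 500 ng per labelling, was hybridised to 1-colour Agilent whole mouse genome arrays, and the authors deposited the scanner output of Agilent Feature Extraction (version 12.0.0.7 in the headers), whose processed signal is an intensity after background subtraction. The authors also deposited a table of log2 values (Partek 6.6 is named in their notes), which correlated with the log2 processed signal of the same array with a lowest r of 0.9988. How it was centred is not stated, and it served as an alternative only.

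Here control spots (1639 of 45018) and outlier spots were dropped, spots of a probe were averaged, and each array was expressed as log2 signal minus its 75th percentile. Probes well above background on at least 3 of 14 arrays were tested (29523), and 28223 of 29245 probes with a RefSeq accession matched a current symbol. For a gene with several probes, the one with the highest mean level stood for it. Group means were fitted over all 14 arrays with limma 3.58.1 in R 4.3.3, with 1 weight for water arrays (1.69) and 1 for DSS arrays (0.497), since DSS mice varied more. P-values are two-sided, adjusted by Benjamini-Hochberg over all tested probes, and called under 0.05. The script was tested on simulated data. No spot was saturated, and the number of arrays limits the precision. The statistical method of the study for these arrays is not given in the sources used here. Whether the Nr3c1 probe lies in the floxed part was not determined.

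The 10 genes, the gene lists and the tests were chosen with earlier results of these data known. All 10 genes are named. From other lists, genes called in both genotypes were named, up to 4 higher and 4 lower by mean change. Ctnnb1, Gfap, Lgr4, Bmi1, Prom1, Cd44 and the untested genes were added after values were seen. Alternatives were other weights, only the arrays compared, quantile normalization, the deposited table, other filters, the mean over probes, slide or replicate number as a block, and each array left out. Normexp on median signals (offset 50, since the files held no mean signals), spike-in scaling over 10 spike-in probes, and leaving out a pair of arrays were added after seeing the data.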

Additional observations from a re-analysis of the deposited data

Results flagged for a closer look

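Among 26 groups of 4 water arrays, 1 for each probe and genotype, 4 held an array far from the others by Dixon's criterion, which chance meets in about 1 in 20 groups. Ascl2 read -1.93 in GR iKO control replicate 4, where the nearest mouse was at -2.68. The second Sox9 probe read 1.33 in Flox control replicate 1, with the nearest at 0.95. The dimmest Sox9 probe read -4.58 in Flox control replicate 2, with the nearest at -4.37. Lrig1 read 2.34 in GR iKO control replicate 2, with the nearest at 2.66. The DSS groups, with 3 mice each, were not examined in this way.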

How the results depend on the processing

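The number of the 10 genes called was 8 for DSS in Flox, 8 for DSS in GR iKO and 0 for each genotype comparison and the interaction. Leaving out 1 array at a time gave 5 to 9, 7 to 8, 0 to 0, 0 to 0 and 0 to 0. The count of 5 was reached without Flox DSS replicate 1 and without Flox DSS replicate 2, when Sox9, Tnfrsf19 and Lrig1 lost their calls. Array quality weights gave 10 and 8 for DSS in Flox and in GR iKO, 3 for genotype on DSS and 2 for the interaction. Of all 29523 probes, these weights called 19547, 12413, 4455 and 2956 in the same order. Quantile normalization, the deposited table and the mean over probes gave 9 and 8 for DSS in Flox and in GR iKO. For genotype on DSS, 6 probes were called in the main fit, 4455 with array quality weights and 3903 without weights. Normexp gave 6 and 7 for DSS in Flox and in GR iKO, spike-in scaling 10 and 8, and a replicate block or slide as a block 7 and 8 each, with 0 for genotype and interaction. Of all 29523 probes, normexp called 14262 for DSS in Flox and 9582 in GR iKO, and spike-in scaling 24332 and 11369. The replicate block called 14263 and 11758, and slide as a block 14391 and 11782. The cause of these shifts was not tested. The planned normexp on mean signals was not run.

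Of the values that changed sign, only the Lrig1 change in Flox had been called. With spike-in scaling, DSS in Flox gave -1.67 for Smoc2 and -1.61 for Lrig1, and DSS in GR iKO gave -0.75 for Lrig1. There the genotype difference on water was -0.032 for Smoc2, and that on DSS was 0.65 for Lgr5, 1.05 for Ascl2, 1.09 for Axin2, 0.34 for Smoc2, 0.84 for Znrf3, 1.04 for Cdca7, 0.52 for Tnfrsf19 and 0.70 for Lrig1, where all probes had a median of 1.14. The interaction was 0.84 for Lgr5, 0.37 for Smoc2, 0.83 for Znrf3, 1.19 for Cdca7, 0.79 for Tnfrsf19 and 0.86 for Lrig1, where all probes had a median of 1.28. With array quality weights, the genotype difference on water was 0.0061 for Lgr5, -0.0029 for Smoc2 and 0.0052 for Cdca7, that on DSS was 0.57 for Lgr5, 0.25 for Ascl2 and 0.24 for Cdca7, and the interaction was 0.57 for Lgr5 and 0.23 for Cdca7. Normexp gave 0.15 for Znrf3 with DSS in Flox and interactions of -0.18 for Ascl2 and -0.057 for Axin2. The Axin2 difference on DSS was 0.050 by quantile normalization, 0.046 in the deposited table and 0.0059 with slide as a block. The mean over probes gave 0.027 for Smoc2 with DSS in GR iKO.

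Leaving out 1 array at a time also turned some uncalled genotype values. On water they ranged from -0.18 to 0.045 for Lgr5, -0.15 to 0.057 for Sox9, -0.067 to 0.043 for Cdca7, -0.049 to 0.061 for Lrig1 and -0.095 to 0.21 for Smoc2. On DSS they ranged from -1.49 to 0.087 for Lgr5, -0.33 to 0.27 for Ascl2, -0.15 to 0.066 for Axin2, -0.24 to 0.88 for Sox9 and -0.33 to 0.15 for Cdca7. The interaction ranged from -1.43 to 0.14 for Lgr5, -0.14 to 0.46 for Ascl2, -0.17 to 0.96 for Sox9 and -0.32 to 0.16 for Cdca7.

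Mice with the same replicate number were only weakly alike, and whether the numbers pair mice was not settled. Deviations of same-numbered mice correlated at a mean of 0.12 and 0.11 between water and DSS in Flox and GR iKO. Between genotypes the mean was 0.11 on water and 0.072 on DSS. Mice of other numbers were at -0.041, -0.037, -0.036 and -0.019 in the same order. The lowest same-numbered pair was at -0.080, and 3 of 6, 4 of 6, 3 of 8 and 2 of 4 arrays were closest to their own number. Between water and DSS, same-numbered mice of a genotype also shared a slide, so number and slide cannot be told apart there. The replicate block turned the Cdca7 interaction to 0.0044 and ended the call of Tnfrsf19 in Flox (adjusted p = 0.0548). With a probe not well above background, as for Lgr5 on DSS in GR iKO, the size of a fall is limited by background.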
